A study of Mus musculus with 4 samples.

Results

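The genes described here encode integrins and other receptors with which blood stem and progenitor cells hold on to the bone marrow niche: alpha and beta integrin subunits, selectins and their ligands, adhesion receptors of the immunoglobulin superfamily, and cadherins. They were chosen by name, 41 genes in all, and a gene was taken as measured where the platform annotation gave its symbol as the only symbol of a probe set. Of the 41 genes, 40 were measured, out of 19938 named genes on the array, and each was represented by its brightest probe set over the 4 arrays. Selp, the gene of P-selectin, is not analysed here.

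The study measured transcripts in KLS cells of mouse bone marrow, which lack lineage markers and carry the receptors c-Kit and Sca-1 (Lin- c-Kit+ Sca-1+), as stem and early progenitor cells do. On Affymetrix arrays, 2 samples of KLS cells labelled Klf7-/- were compared with 2 labelled Klf7+/+, all on a C57Bl/6 background. Fetal liver cells had been used to make chimeric mice whose marrow mixed both genotypes. The labels do not say whether the 2 groups were sorted from the same mice, how many mice or fetal livers stand behind an array, whether cells were pooled or what cells of their own the hosts kept, so the p-values reflect the spread of these 4 samples alone and that spread could be technical.

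The labels could not be checked with the targeted gene. Klf7 read 6.59 and 6.18 on the arrays labelled knockout and 5.95 and 6.10 on the wild-type arrays (log2 intensity), a difference of 0.36 ± 0.21 (SE, n = 2 per group). The labels do not name the deleted part of the gene, and a probe set outside it would check nothing, so the groups are called by their labels throughout. Kit, the receptor used in the gate, read 10.12 and 9.92 on the knockout-labelled arrays and 9.55 and 9.71 on the wild-type arrays, above the median gene level of 5.77. Transcripts linked to sex split the arrays in the same way as the labels, with Xist at 11.76 and 11.58 on the knockout-labelled arrays and 5.24 and 4.80 on the wild-type arrays. Genotype and sex-linked expression cannot be told apart here, and 0 of the 40 adhesion genes lie on the X or Y chromosome in the RefSeq gene table.

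An integrin is a pair of one alpha and one beta subunit that spans the membrane, binds matrix proteins or receptors of a neighbouring cell outside, and couples to talin, kindlin and the actin skeleton inside. On blood stem and progenitor cells the pair of Itga4 and Itgb1 binds VCAM1 and fibronectin in the marrow, the pair of Itga5 and Itgb1 binds fibronectin, and the pair of Itgal and Itgb2 binds intercellular adhesion molecules on endothelium. Selectins slow circulating cells on the vessel wall, and KLF7 is a Kruppel-like zinc finger factor of a family that binds CACCC and GC boxes in promoters.

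None of the adhesion genes differed between the groups beyond the threshold. Differences ran from -0.46 for Itga1, the alpha subunit of a collagen receptor, to 0.75 for Itgav, the alpha subunit of vitronectin receptors, on the log2 scale, knockout-labelled minus wild type. The median over the 40 genes was -0.02, with quartiles of -0.13 and 0.13, and the median over all named genes was -0.03, with quartiles of -0.18 and 0.13. There were 18 genes with a higher and 22 with a lower mean on the knockout-labelled arrays. In limma, with p-values adjusted over the 28939 probe sets of the fit by Benjamini-Hochberg and a threshold of 0.05, 0 of the 40 genes passed, with adjusted p from 0.945 to 1, where 0.00346% of all probe sets passed. The only probe set that passed was that of Xist (limma adjusted p = 0.0454), the sex-linked transcript described above. At an unadjusted p under 0.05 there was 1 adhesion gene, Itga1, against 4.81% of all named genes.

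The intervals of the fit give a range for each gene's difference between the labelled groups, without adjustment for the number of probe sets tested. They do not bound an effect of genotype, which cannot be told apart from sex-linked expression here. The 95% confidence interval of the limma fit lay within a 2-fold change in either direction for 36 of the 40 genes. The 4 others were Itgav, Itga6, Itgal and Vcam1, whose intervals reached 1.68, -1.07, -1.19 and -1.38. Beside this, 15517 of 19938 named genes had an interval within 2-fold, as did 19 of the 22 adhesion genes above the median gene level. Whether the dimmer genes lay above background was not tested, so their intervals bound the array signal and not the transcript. No adhesion gene was 2-fold apart with the groups separate, which 1.22% of all named genes were, and 1, Itgav, was separate and 1.5-fold apart, which 5.14% of all named genes were. A p that misses the threshold does not show that the groups are alike, and each interval rests on 2 arrays per group.

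**Figure D1:**
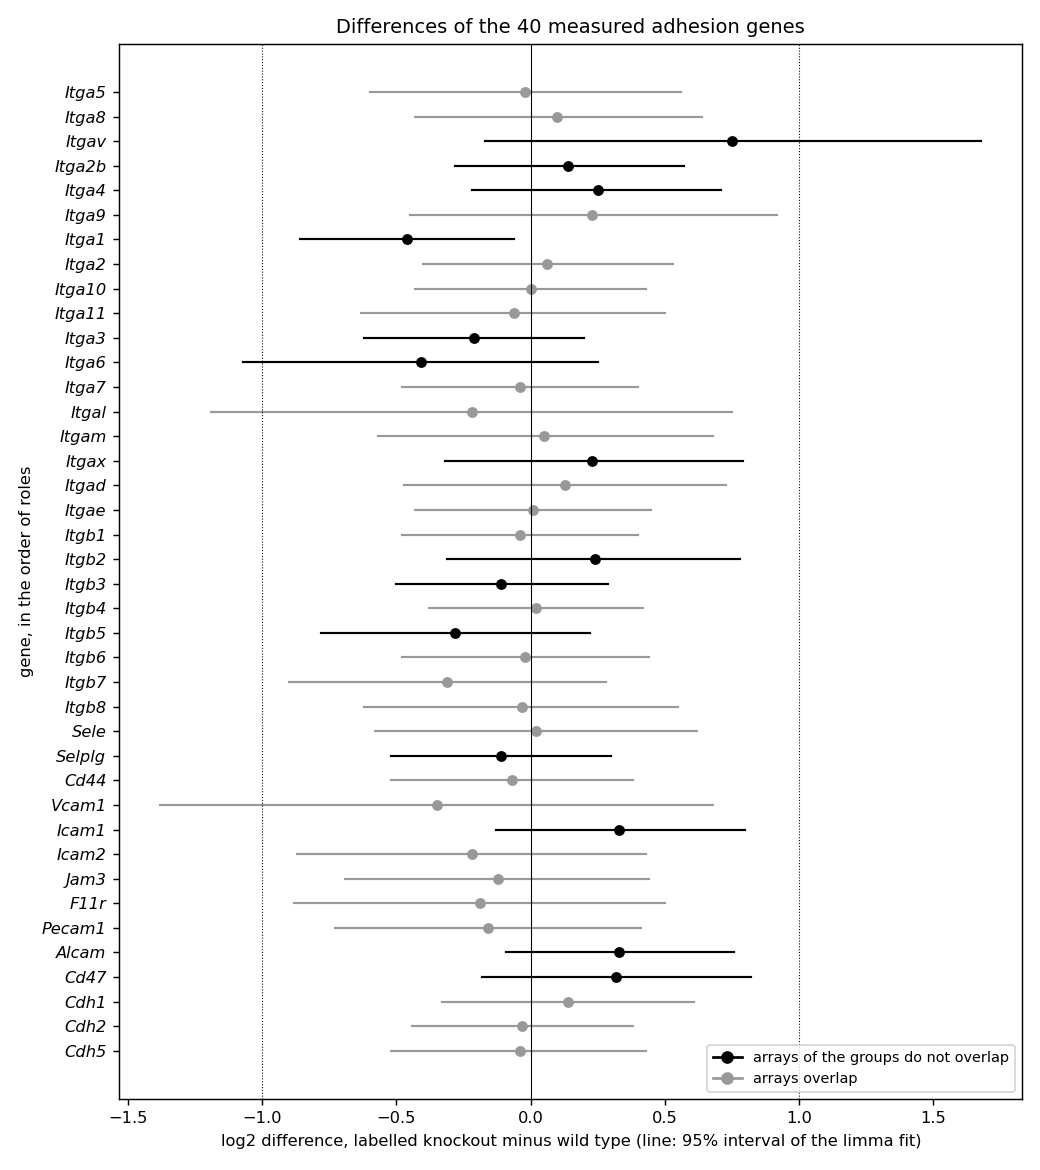
Difference in log2 intensity, knockout-labelled minus wild type, for each of the 40 measured adhesion genes in the order of their roles, with 95% confidence intervals of the limma fit (n = 2 per group); dotted lines mark a 2-fold change. Only the interval of Itga1, from -0.86 to -0.06, lies wholly on one side of 0, before any adjustment for the number of probe sets tested.

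The 2 arrays of each group lay wholly above or wholly below those of the other group for 14 of the 40 genes. That is 35%, beside 33.2% of all named genes. Of the 14, 8 were higher on the knockout-labelled arrays, where 14.5% of all named genes were, and 6 were lower, where 18.6% were. The 8 were Itgav, Itga2b, Itga4, Itgax, Itgb2, Icam1, Alcam and Cd47, and the 6 were Itga1, Itga3, Itga6, Itgb3, Itgb5 and Selplg. Of these 14 genes, 11 were also separate under cyclic loess and under quantile normalization, the exceptions being Itgax, Itgb2 and Itgb5 under both. Among the 22 adhesion genes above the median gene level 10 were separate, beside 32.8% of all named genes above it.

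**Figure D2:**
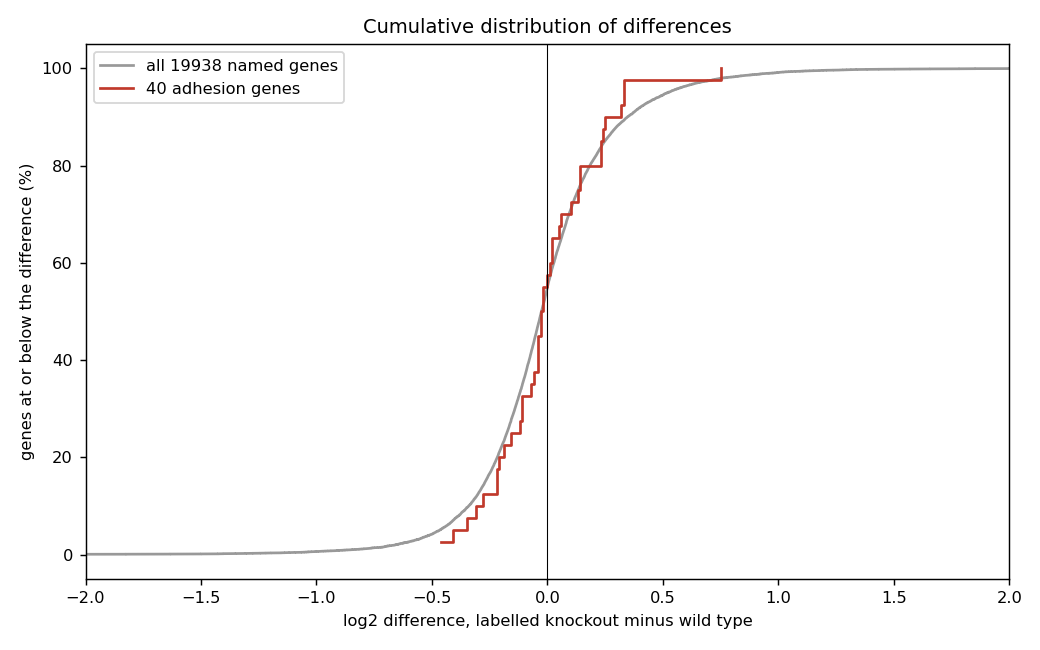
Cumulative percentage of genes (vertical axis) at or below a given log2 difference, knockout-labelled minus wild type (horizontal axis, drawn from -2 to 2), for the 40 adhesion genes and for all 19938 named genes. The lines run close to each other, with medians of -0.02 and -0.03.

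Upstream sequence is shown for 6 of the 14 separate genes, the 3 with the largest difference in each direction among those in the RefSeq promoter table, so that the CACCC and GC boxes in front of them can be seen. They were chosen after their values were seen. The sequences come from RefSeq on GRCm38.p6 and give the 250 bases before the most upstream start, 5′ to 3′ on the gene's strand. The windows are chr2:83724147-83724396 on the plus strand for Itgav, chr16:52453082-52453331 on the minus strand for Alcam and chr9:21015690-21015939 on the plus strand for Icam1, which were higher. They are chr13:115101965-115102214 on the minus strand for Itga1, chr16:33829415-33829664 on the plus strand for Itgb5 and chr11:95076715-95076964 on the minus strand for Itga3, which were lower. Capitals mark CACCC or its complement GGGTG, and GGGCGG or its complement CCGCCC.
Itgav: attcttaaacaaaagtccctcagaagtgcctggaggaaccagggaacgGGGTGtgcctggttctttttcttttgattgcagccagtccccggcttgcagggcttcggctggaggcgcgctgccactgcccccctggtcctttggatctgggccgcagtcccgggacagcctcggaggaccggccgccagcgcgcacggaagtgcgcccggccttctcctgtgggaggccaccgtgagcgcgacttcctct
Alcam: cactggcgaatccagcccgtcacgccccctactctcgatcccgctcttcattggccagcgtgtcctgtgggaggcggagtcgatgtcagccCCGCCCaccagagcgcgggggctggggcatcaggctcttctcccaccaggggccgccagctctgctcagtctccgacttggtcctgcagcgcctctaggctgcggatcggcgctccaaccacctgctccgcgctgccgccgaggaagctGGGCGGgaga
Icam1: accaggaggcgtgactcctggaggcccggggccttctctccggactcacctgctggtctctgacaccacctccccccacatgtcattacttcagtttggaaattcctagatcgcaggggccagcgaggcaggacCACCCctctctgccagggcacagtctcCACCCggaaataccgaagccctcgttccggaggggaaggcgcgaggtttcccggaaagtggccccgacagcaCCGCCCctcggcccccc
Itga1: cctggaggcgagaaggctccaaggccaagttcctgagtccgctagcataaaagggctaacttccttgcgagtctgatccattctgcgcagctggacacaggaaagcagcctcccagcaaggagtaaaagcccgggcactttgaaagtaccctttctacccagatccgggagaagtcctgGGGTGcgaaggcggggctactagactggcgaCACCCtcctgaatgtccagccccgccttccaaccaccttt
Itgb5: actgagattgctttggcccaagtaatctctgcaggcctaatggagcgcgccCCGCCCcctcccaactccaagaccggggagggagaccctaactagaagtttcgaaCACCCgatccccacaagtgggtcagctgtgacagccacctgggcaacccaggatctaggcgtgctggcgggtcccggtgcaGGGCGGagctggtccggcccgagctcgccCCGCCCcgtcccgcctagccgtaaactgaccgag
Itga3: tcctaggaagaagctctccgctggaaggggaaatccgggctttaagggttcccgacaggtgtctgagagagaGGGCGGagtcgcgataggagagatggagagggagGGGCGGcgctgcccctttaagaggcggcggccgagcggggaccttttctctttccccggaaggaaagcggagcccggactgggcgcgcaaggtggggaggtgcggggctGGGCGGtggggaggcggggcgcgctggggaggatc

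Both kinds of box stood in front of genes of either direction. Itgav held 1 CACCC box and 0 GGGCGG boxes, Alcam 0 and 2, and Icam1 2 and 1. Itga1 held 2 and 0, Itgb5 1 and 3, and Itga3 0 and 3. The promoter table held 25 of the 41 genes, 24 of them measured. A CACCC box on either strand was in 13 of these 24 windows and in 51.3% of the 27025 windows of all genes, a GGGCGG box was in 10 and in 33.0%, and at least 1 of them was in 17 and in 64.2%. No 2 boxes of different kinds overlapped in the adhesion genes' windows. The adhesion genes' windows had a median of 59.2% G and C, against 52.0% over all windows, and a match of letters shows neither binding nor a cause.

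Among the alpha subunits that bind fibronectin, vitronectin or fibrinogen, Itgav showed the widest difference of all the adhesion genes. It read 7.00 and 7.06 on the knockout-labelled arrays and 5.80 and 6.76 on the wild-type arrays, so that the groups did not overlap but a single wild-type array lay far below the other 3. The difference was 0.75 ± 0.35 (SE, n = 2 per group; limma adjusted p = 0.946). Without wild-type replicate 1 it was 0.27 and without wild-type replicate 2 it was 1.23, the latter past 2-fold. The upstream window of Itgav printed above holds a single CACCC box.

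Itga5, which pairs with Itgb1 as the main fibronectin receptor, read 6.21 and 6.26 on the knockout-labelled arrays and 6.50 and 6.02 on the wild-type arrays, with the knockout-labelled values between the wild-type ones. Its difference was -0.02, with an interval of -0.60 to 0.56. Itga2b, whose product marks megakaryocytes and some stem and progenitor cells and pairs with Itgb3 as the fibrinogen receptor of platelets, read 6.24 and 6.41 against 6.16 and 6.20. The groups stood apart by a narrow margin, and the difference was 0.14 ± 0.16 (SE), or 0.05 to 0.23 with an array left out. The fourth gene of this kind, Itga8, was below the median gene level, with a difference of 0.10.

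Itga4, the alpha subunit through which progenitors bind VCAM1, read 9.16 and 8.87 on the knockout-labelled arrays and 8.78 and 8.76 on the wild-type arrays. Both knockout-labelled values were higher, by a margin that knockout replicate 1 widened. The difference was 0.25 ± 0.18 (SE, n = 2 per group), with an interval of -0.22 to 0.71 and a limma adjusted p of 0.953, and it was 0.10 without knockout replicate 1. Itga9, its closest relative among the alpha subunits, was below the median gene level and overlapped between groups, at 0.23 ± 0.26.

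The collagen-binding alpha subunits held the gene with the smallest p. Itga1 read 4.84 and 4.92 on the knockout-labelled arrays and 5.34 and 5.35 on the wild-type arrays, all below the median gene level. The gaps within groups, 0.08 and 0.02, were far smaller than the difference of -0.46 ± 0.15 (SE; interval -0.86 to -0.06), which stayed between -0.50 and -0.42 when any one array was left out. With an offset of 32 added before log2, which damps dim genes, it was -0.24. Its unadjusted p was 0.0327 and its limma adjusted p 0.945. Itga2, which lies next to Itga1 on chromosome 13 with 0 protein-coding genes between them in GRCm38.p6 and also encodes a collagen receptor subunit, differed by 0.06 and overlapped. Itga10, a collagen receptor subunit of cartilage, read 5.80 and 5.94 against 5.93 and 5.80, and Itga11 differed by -0.06.

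The 3 laminin-binding alpha subunits all had lower means on the knockout-labelled arrays, and 2 of them did not overlap, beside 10971 of 19938 named genes with a lower mean and 33.2% without overlap. Itga6, a laminin receptor subunit long used to enrich stem cells of several tissues, read 6.82 and 6.97 on the knockout-labelled arrays and 7.60 and 7.01 on the wild-type arrays. Wild-type replicate 1 stood above the other 3 arrays, which lay close together. The difference was -0.41 ± 0.25 (SE; interval -1.07 to 0.25; limma adjusted p = 0.953), and it was -0.12 without that array. Itga3, below the median gene level, read 5.41 and 5.51 against 5.70 and 5.65, a difference of -0.21 ± 0.16. Itga7, the muscle form, differed by -0.04 and overlapped.

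Of the 5 leukocyte alpha subunits, only Itgal was above the median gene level. Itgal, the alpha subunit of LFA-1, read 6.10 and 6.15 on the knockout-labelled arrays and 6.85 and 5.83 on the wild-type arrays. The knockout-labelled values lay between the wild-type ones, whose gap of 1.02 was the widest within any group for the 40 genes. The difference of -0.22 ± 0.37 became 0.29 without wild-type replicate 1. Itgam, Itgax and Itgad lie side by side on chromosome 7, with 0 protein-coding genes between neighbours, and encode subunits carried mainly by myeloid cells. Itgax read 5.75 and 5.31 against 5.29 and 5.30, with knockout replicate 1 alone clearly higher, and without it the difference of 0.23 was 0.01. Itgam differed by 0.05 and Itgae, the subunit of the receptor for E-cadherin, by 0.01. The brighter probe set of Itgad differed by 0.13 and overlapped, and its other probe set read 5.09 and 4.92 against 4.48 and 4.68, a difference of 0.42 ± 0.17 with no overlap.

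Among the beta subunits, Itgb1, the common partner of most of the matrix-binding alpha subunits, had values that alternated between the groups. It read 8.85 and 9.01 on the knockout-labelled arrays and 9.05 and 8.89 on the wild-type arrays, a difference of -0.04 ± 0.17 (SE; interval -0.48 to 0.40). Itgb2, the beta subunit of the leukocyte integrins, read 6.39 and 5.95 against 5.94 and 5.92. Knockout replicate 1 alone stood out, and the difference of 0.24 ± 0.21 was 0.02 without it. On that array the summed intensity of the 14 measured markers of mature myeloid cells was 3177, against 1181 to 2307 on the other 3. S100a9 and S100a8, at 10.40 and 9.59 there, weighed most in that sum. The markers highest on that array were S100a8, S100a9, Ngp, Camp, Ltf, Mmp8 and Mmp9. Lyz2, Csf1r, Ly6g, Fcgr3, Cd14, Adgre1 and Cd68 were not highest there. The part of mature myeloid cells in the Itgb2 value was not tested.

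Itgb7, which can replace Itgb1 beside Itga4, read 6.01 and 5.54 on the knockout-labelled arrays and 6.18 and 5.99 on the wild-type arrays, with knockout replicate 2 lowest. The groups overlapped, and the difference was -0.31 ± 0.22, which became -0.08 without knockout replicate 2 and -0.55 without knockout replicate 1. Itgb3, the partner of Itga2b and Itgav, read 5.95 and 5.90 against 6.03 and 6.03. Its difference of -0.11 ± 0.15 lay opposite in sign to those of both partners, and none of the 3 passed the threshold. Itgb4, the partner of Itga6 in epithelia, read between 5.96 and 6.01 on all 4 arrays. Itgb5, a partner of Itgav that was below the median gene level, read 5.04 and 4.76 against 5.08 and 5.28, a difference of -0.28 ± 0.19. That difference was -0.14 without knockout replicate 2, -0.43 without knockout replicate 1 and -0.14 with an offset of 32. Itgb6 and Itgb8, whose products with Itgav activate TGF-beta, differed by -0.02 and -0.03 and overlapped.

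Selectin and selectin ligand genes showed small differences. Selplg, which encodes PSGL-1, the main selectin ligand of blood cells, read 7.40 and 7.49 on the knockout-labelled arrays and 7.60 and 7.52 on the wild-type arrays. The groups were separate by a narrow margin, with a difference of -0.11 ± 0.16 that ran from -0.15 to -0.07 with an array left out. Cd44, the hyaluronan receptor that can also carry selectin ligands, read 8.33 and 8.17 against 8.22 and 8.41, a difference of -0.07 with an interval of -0.52 to 0.38. Sele, the selectin of activated endothelium, read 6.09 and 6.54 against 6.42 and 6.18, and overlapped.

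Of the 8 immunoglobulin superfamily receptors, 3 were separate, all with higher values, and the other 5 had lower means. The separate genes made up 37.5%, beside 33.2% of all named genes (14.5% separate and higher). Alcam, which binds its own kind and CD6, read 8.02 and 8.20 on the knockout-labelled arrays and 7.80 and 7.75 on the wild-type arrays. The difference of 0.33 ± 0.16 (SE; interval -0.09 to 0.76; limma adjusted p = 0.949) exceeded the gaps within groups of 0.18 and 0.05, and it stayed between 0.25 and 0.42 with any one array left out. Cd47, the signal that keeps macrophages from engulfing a cell, read 12.26 and 11.92 against 11.82 and 11.72, a difference of 0.32 ± 0.19 that was 0.15 without knockout replicate 1 and 0.49 without knockout replicate 2. Its second probe set read 10.62 and 10.46 against 10.19 and 10.51, overlapped, and differed by 0.19. Icam1, a ligand of LFA-1, read 6.26 and 6.40 against 5.88 and 6.12, a difference of 0.33 ± 0.18 that stayed between 0.22 and 0.45 with any one array left out.

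The other members of that superfamily overlapped between the groups. Pecam1, a receptor of endothelium, platelets and stem cells that binds its own kind, read 7.44 and 7.90 on the knockout-labelled arrays and 7.89 and 7.76 on the wild-type arrays, with knockout replicate 1 lowest. Icam2, a constitutive ligand of LFA-1, read 6.71 and 6.38 against 7.01 and 6.52. The junctional adhesion molecule gene F11r read 6.13 and 6.60 against 6.78 and 6.32. For both genes the array values of the groups interleaved, at differences of -0.22 ± 0.25 and -0.19 ± 0.26. Jam3, a second junctional adhesion molecule, read 5.87 and 5.62 against 5.67 and 6.06. Vcam1, the ligand of Itga4, was below the median gene level and spread widely in both groups, from 4.84 to 5.49 and from 5.07 to 5.96.

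All 3 cadherins were below the median gene level and overlapped between groups. Cdh1, E-cadherin, differed by 0.14, Cdh2, N-cadherin, by -0.03, and Cdh5, the cadherin of endothelium, by -0.04. Cyclic loess turned the signs of Cdh2 and Cdh5, to differences of 0.04 and 0.00. Detection calls were not used here, so whether the 18 adhesion genes at or below the median gene level lay above the background of the arrays was not tested.

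**Figure D3:**
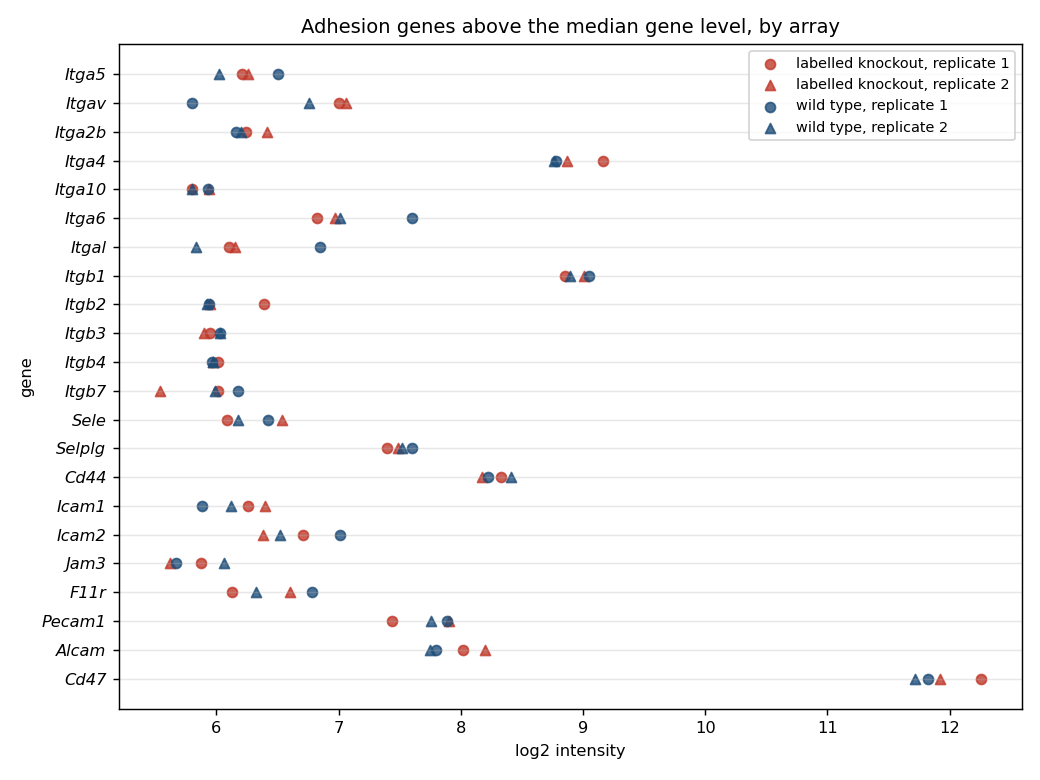
Log2 intensity (horizontal axis) of the 22 adhesion genes whose mean lay above the median gene level of 5.77, with a point for each of the 4 arrays; red marks the arrays labelled knockout and blue the wild-type arrays. Positions of different genes are set by their probes and are not compared; within a gene, the colours are separate for 10 genes, among them Alcam, with both red points above the blue ones.

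Values of the same group often lay further apart than the group means. For 34 of the 40 genes the larger of the 2 gaps between arrays of a group exceeded the difference between group means, beside 78.5% of all named genes. The 6 exceptions were Itga1, Itga3, Itgb3, Selplg, Icam1 and Alcam. The median gap between arrays was 0.17 within the knockout-labelled group and 0.20 within the wild-type group, beside a median difference of 0.13 in either direction between group means. The array that lay farthest from the mean of the other 3 was knockout replicate 1 for 12 genes, knockout replicate 2 for 10, wild-type replicate 1 for 10 and wild-type replicate 2 for 8. Over all named genes the same arrays took 24.6%, 22.7%, 23.3% and 29.4%.

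**Figure D4:**
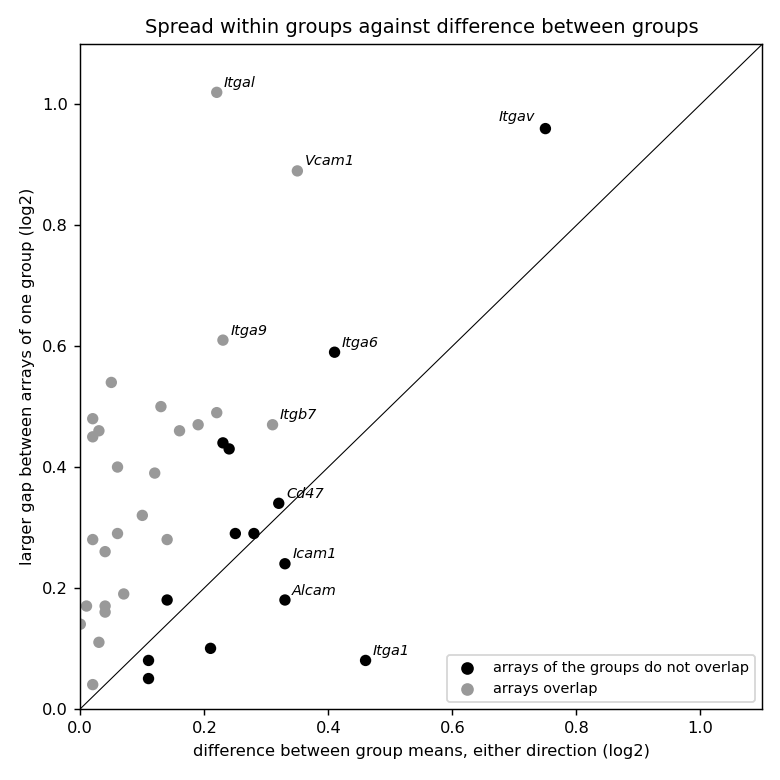
Each point is 1 of the 40 adhesion genes; the horizontal axis gives the size of the difference between group means and the vertical axis the larger gap between 2 arrays of a group, both in log2 units. Points above the diagonal, 34 genes, had a larger gap between 2 arrays of a group than between group means, as had 78.5% of all named genes. Single arrays are set against means of 2 arrays, so the axes do not compare variation within and between groups. Itgal and Itgav, with gaps of 1.02 and 0.96, stand highest, and Itga1 lies lowest to the right.

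Genes that act with integrins inside the cell were taken as a list of 36 activators and adaptors, of which 34 were measured. In the same limma fit 0 passed and 0 had an unadjusted p under 0.05, while 3 were separate and higher and 7 separate and lower on the knockout-labelled arrays, with a median difference of -0.08. The separate genes made up 29.4% of the list, near the 33.2% of all named genes. Tln1, the talin that switches integrins on, differed by 0.08 ± 0.20, and Fermt3, the kindlin of blood cells, by -0.21 ± 0.24. Among separate genes above the median level, the widest were Fyn, a Src family kinase, at -0.43 ± 0.20, Fyb, an adaptor that couples receptor signals to integrins, at -0.43 ± 0.27, and Rapgef1, an exchange factor for the integrin activator Rap1, at -0.35 ± 0.16. Without wild-type replicate 1, Fyb stood at -0.09 and Fyn at -0.24.

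Of 30 genes of matrix proteins and counter-receptors, 29 were measured; limma called 0, and 0 lay at an unadjusted p under 0.05, with 6 separate and higher, 7 separate and lower, and a median of -0.01. The separate genes made up 44.8% of the list, beside 33.2% of all named genes (14.5% higher and 18.6% lower). Only 10 of the 29 genes lay above the median gene level. The median size of a difference, in either direction, was 0.09, beside 0.16 over all named genes. Icam4, an erythroid ligand of integrins, read 5.80 and 6.02 on the knockout-labelled arrays and 7.13 and 6.11 on the wild-type arrays, a difference of -0.71 ± 0.37 that was -0.20 without wild-type replicate 1. Hmmr, a hyaluronan receptor that also acts at the mitotic spindle, differed by 0.42 ± 0.17 and the collagen gene Col4a1 by 0.14 ± 0.15.

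A list of 30 further homing and retention genes was measured in full; limma called 0, and 1, Cd34, lay at an unadjusted p under 0.05, with 2 separate and higher and 6 separate and lower. These shares, 26.7% separate and 1 of 30 at that p, stand beside 33.2% and 4.81% of all named genes. Cd34, a sialomucin of progenitors that can carry selectin ligands, read 10.24 and 10.22 on the knockout-labelled arrays and 9.65 and 9.57 on the wild-type arrays. The difference of 0.62 ± 0.15 (SE; interval 0.22 to 1.02; unadjusted p = 0.0115, limma adjusted p = 0.945) stayed between 0.58 and 0.66 with any one array left out. Was, a regulator of actin, differed by -0.31 ± 0.18 and Mcam, a receptor of the immunoglobulin superfamily, by -0.29 ± 0.16, and Was stood at -0.17 without wild-type replicate 2.

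Cd34 is also among the 10 measured genes of the stem and progenitor list, 6 of which were separate and higher on the knockout-labelled arrays and 1 separate and lower, with 0 past the limma threshold and 2, Cd34 and Mecom, at an unadjusted p under 0.05. The separate genes made up 70% of this short list, beside 33.2% of all named genes (14.5% higher and 18.6% lower). The summed intensity of all 10 measured genes, separate or not, was 5650 to 6244 on the knockout-labelled arrays and 4286 to 5420 on the wild-type arrays. Besides Cd34, Mecom, a transcription factor gene of stem cells, differed by -0.71 ± 0.25, which was -0.40 without wild-type replicate 1 and -1.01 without wild-type replicate 2. Flt3, a receptor of multipotent progenitors, differed by 0.48 ± 0.19. In sorted populations fewer cells of a kind and less RNA per cell cannot be told apart, and the part of the make-up of the gate in the adhesion gene values was not tested.

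Markers of other cells that carry these receptors overlapped between groups in summed intensity, apart from a small gap for endothelium. The 12 endothelial markers summed to 731 to 737 on the knockout-labelled arrays and 753 to 757 on the wild-type arrays, with Tie1 at -0.23 ± 0.17 and Egfl7 at 0.10 ± 0.15. Of the 12, 8 had a lower mean on the knockout-labelled arrays, and differences ran from -0.39 to 0.14. The groups were separate and lower for 4 and separate and higher for 2, together 50%, beside 33.2% of all named genes (18.6% lower and 14.5% higher). The 8 measured megakaryocyte and platelet markers summed to 802 to 951 and 706 to 927. Ppbp, a platelet chemokine gene below the median gene level, was chosen after its value was seen as the only gene of these markers 2-fold apart without overlap, at 1.24 ± 0.33 (SE; limma adjusted p = 0.945). The 10 stromal markers summed to 453 to 486 and 479 to 511, with Col1a2 at -0.09 and Col1a1 at -0.07. The 14 myeloid markers summed to 1181 to 3177 and 1577 to 2307. The 12 lymphocyte markers summed to 477 to 837 and 523 to 539, with Cd3e at -0.10. The 837 was on knockout replicate 1, where Vpreb1 read 8.59, against 5.35 to 5.57 on the other arrays. Of these 12 markers, 10 had a lower mean on the knockout-labelled arrays. The 9 erythroid markers summed to 1304 to 1555 and 1182 to 1313, with Slc4a1 at 0.28 and Tfrc at 0.18. The directions were mixed, with 5 of the 9 higher and 4 lower in mean on the knockout-labelled arrays. Of the 9, 3 were separate and higher and 1 was separate and lower. Limma called 0 of these marker genes, and Ppbp alone lay at an unadjusted p under 0.05. No measure of background was used, so these sums do not show whether such cells were present. The part of such cells in the adhesion gene values was not tested.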

How the data were processed

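The members and the gene lists were chosen with earlier results of these data known. The authors deposited a table with an intensity for each probe set on each array. The submitters' processing notes name RMA and Affymetrix Expression Console, and give neither a version nor settings. RNA was amplified with a NuGen Ovation kit, per the labels' protocols. The intensities reached 17720.8 among tested probe sets, so they were read as linear and log2 was taken. Array medians ran from 51.01 to 52.26, and no further normalization was applied in the main fit.

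Of 35554 probe sets, the first 6615 precede the annotation's first entry and were left out as presumed controls; 28939 were tested. The 2016 annotation gave 1 symbol for 21789 and several for 1621, and a gene was represented by its brightest probe set. The test was limma 3.58.1 under R 4.3.3, with its lmFit and eBayes steps, two-sided and with 2 residual degrees of freedom, and Benjamini-Hochberg adjustment covered the whole table; the steps were tested on simulated data. The genes named singly were the members above the median gene level or separate between groups, with the dimmer ones in brief, and up to 3 genes per list that were separate, above that level and widest apart. Tln1, Fermt3, Ppbp, Vpreb1 and the myeloid markers named beside Itgb2 were added after their values were seen. So were Klf7, Kit and Xist as checks. RefSeq tables on GRCm38.p6 gave chromosomes and promoters. Results were recomputed without dim probe sets, after cyclic loess or quantile normalization, with an offset of 32, with 2 variance models, with the replicate block, without each array in turn, with a gene's probe sets averaged, with the leading probe sets kept and at a 1.5-fold threshold. The number of arrays limits the precision.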

Additional observations from a re-analysis of the deposited data

How the results depend on the processing

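Over 13 refits and the 1.5-fold threshold, the count of adhesion genes past the limma threshold stayed at 0, with no adjusted p under 0.678 and 0 to 3 genes at an unadjusted p under 0.05. The number separate between groups was 11 to 15 of 40 with all arrays, 10 of the 22 left by the filter on dim probe sets, and 24 to 30 when 1 array was left out, since 3 values overlap less easily than 4. The number 2-fold apart and separate was 0 to 1 with an array left out, the 1 being Itgav without wild-type replicate 2, and 1 with the 1.5-fold threshold. The median difference was -0.07 to 0.05 with an array left out. The replicate block gave 0 genes past the threshold and a lowest adjusted p of 0.881; the labels do not say that equal numbers mark a shared mouse, and deviations of equal-numbered arrays correlated at 0.0434 over probe sets. Of 502 gene values under alternatives, 458 kept their sign. That count includes refits in which a gene's difference could not change. These were the filter on dim probe sets, the variance models, the replicate block and the leading probe sets kept. Cyclic loess turned Itgb6 to 0.06, Itgb8 to 0.01, Cdh2 to 0.04 and Cdh5 to 0.00, and quantile normalization turned Itgb6 to 0.07 and Cdh2 to 0.03; the cause was not tested. Another 38 reversals, in 24 genes, came with an array left out, and the differences then ran over these ranges: Cd44 -0.16 to 0.03, Cdh1 -0.01 to 0.28, Cdh2 -0.08 to 0.02, Cdh5 -0.17 to 0.09, F11r -0.42 to 0.05, Icam2 -0.47 to 0.03, Itga10 -0.07 to 0.07, Itga11 -0.26 to 0.14, Itga2 -0.08 to 0.21, Itga5 -0.26 to 0.22, Itga7 -0.13 to 0.04, Itga8 -0.06 to 0.26, Itga9 -0.07 to 0.54, Itgad -0.12 to 0.38, Itgae -0.07 to 0.09, Itgal -0.73 to 0.29, Itgam -0.21 to 0.32, Itgb1 -0.12 to 0.04, Itgb6 -0.16 to 0.12, Itgb8 -0.26 to 0.19, Jam3 -0.32 to 0.07, Pecam1 -0.39 to 0.07, Sele -0.21 to 0.25 and Vcam1 -0.79 to 0.10. No measure of background was used, so the floor of the arrays limits the dim genes.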
